A study of Rattus norvegicus with 18 samples.

Results

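Liver sinusoidal endothelial cells (LSEC) of the rat after 42 h in culture were compared with the same cell type taken directly after isolation. All arrays with these labels were used: 4 arrays of cultured cells (LSEC_42h, numbered 1, 2, 3 and 12 in the labels) and 5 arrays of fresh cells (LSEC_0h, numbered 13 to 17), 9 of the 18 arrays in all. Both groups began with enzymatic digestion of the liver, a density gradient and magnetic sorting. The 42 h cells were then plated on dishes coated with collagen, and the fresh cells had no culture. The 4 arrays of LSEC kept for 2 h on collagen (LSEC_2h) are used beside named genes. The 5 arrays of fresh lung endothelial cells were left out of the main tests. They entered the alternative fit of all 18 arrays, where their spread counts in the error, and a level given for Flt4. The labels give the tissue but no strain, sex, age or animal, and p-values therefore rest on the spread among these arrays, which may be technical. Each array gave a log2 expression level for 11018 genes, and with 4 and 5 arrays the number of arrays sets the precision.

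LSEC line the capillaries of the liver. They have open pores and no continuous basement membrane, and they clear waste proteins, lipoproteins and immune complexes from the blood through scavenger receptors, coated vesicles and lysosomes. They also send BMP and Wnt signals to the hepatocytes around them, and retinoic acid, nitric oxide and flow act on them in the liver. Outside the liver they are known to lose pores and sinusoidal markers within days.

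The 11018 genes were tested between the groups with limma, a linear model that shares information on variance across genes, with Benjamini-Hochberg adjustment across the whole set. Genes whose adjusted p lay under 0.05 count as called. Culture for 42 h was followed by calls for 6240 genes, 56.6% of those tested. Of these 3723 rose (33.8% of genes tested) and 2517 fell (22.8%), and at least 2-fold changes were called for 453 genes that rose (4.11%) and 593 that fell (5.38%). Changes of at least 4-fold were called for 50 genes that rose and 155 that fell. The median log2 difference over all genes, 42 h minus fresh, was 0.05 with quartiles of -0.16 and 0.26. In 48.7% of genes the groups did not overlap, with every 42 h array higher in 29.1% and lower in 19.6%. Counts for the gene lists that follow are to be read against these percentages.

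**Figure D1:**
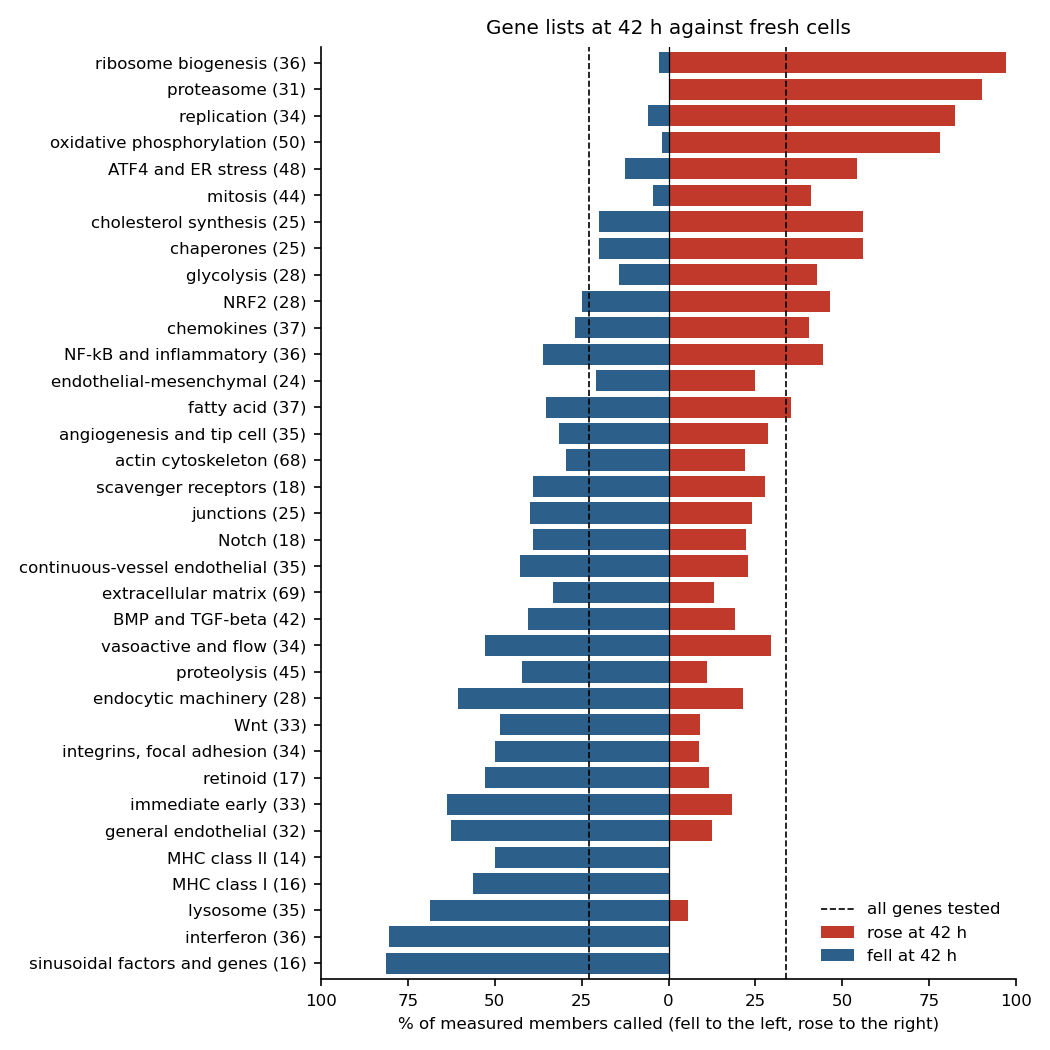
Percentage of measured members that rose (right) and fell (left) at 42 h against fresh cells in 35 gene lists, with the number of measured members in brackets; dashed lines give the same over all genes tested, 33.8% and 22.8%. Ribosome biogenesis and the proteasome have the largest share of rises among these lists, and sinusoidal genes and interferon genes the largest share of falls.

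Technical controls differed between the groups. The bacterial poly-A control transcripts averaged 7.68 to 7.86 per array at 42 h, against 5.72 to 5.74 in the fresh arrays, where no control was above 6.26 as a group mean. That highest value, 6.26, was taken as the background mark: a gene whose lower group mean lies at or below it has a fold that is only a lower bound, written here as "at least". The handling that added these controls cannot be told apart from culture. The Actb control probes, a sign of RNA quality, had a 3′ minus 5′ log2 difference of 1.85 ± 0.04 at 42 h and 1.02 ± 0.15 in fresh cells (SD, n = 4 and n = 5; two-sided exact permutation test, p = 0.0159, the smallest this design allows, adjusted over 2 tests 0.0317). The same difference for Gapdh was 0.35 ± 0.04 at 42 h and 0.44 ± 0.23 in fresh cells (exact permutation p = 0.651). Array medians were 7.15 to 7.18 at 42 h and 7.14 to 7.19 in fresh cells, and the highest values on each array were 13.54 to 13.68 at 42 h and 13.53 to 13.63 in fresh cells. Fresh array 16 stood apart with an Actb difference of 1.28, against 0.91 to 0.97 in the other fresh arrays, and without it 54.2% of genes were called. A gene with a mean above 13 is near this upper end, where a fold may be understated.

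Signal of other liver cells was lower at 42 h. Over the 36 measured hepatocyte markers, which include albumin and other plasma proteins, the mean log2 level per array was 6.21 to 6.31 at 42 h and 7.61 to 8.97 in fresh cells. Of these 34 fell and 0 rose, and 20 had a 42 h mean at background. Alb, the albumin gene, had log2 levels of 6.52, 6.73, 6.39 and 6.32 at 42 h, against 12.33, 11.71, 12.66, 12.62 and 11.59 in fresh cells. It was 51.8-fold lower at 42 h (adjusted p = 1.16e-07). Markers of Kupffer cells, the resident macrophages of the sinusoid, averaged 6.57 to 6.93 at 42 h and 7.72 to 9.91 in fresh cells. Of 17 such markers 11 fell and 1, Cd14, rose, a call lost with all 18 arrays in the fit and without fresh array 13, 14, 16 or 17 or 42 h array 1, 2 or 3. Clec4f, which defines these cells, had log2 levels of 6.78, 6.68, 6.71 and 6.74 at 42 h, against 11.18, 10.21, 12.15, 10.42 and 9.43 in fresh cells. Their level differed widely among the fresh arrays: array 15 was highest for both lists, array 17 was lowest for Kupffer markers, and arrays 14 and 17 were lowest for hepatocyte markers. In these bulk samples fewer cells of a type and less RNA per cell cannot be told apart.

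The other cell types gave smaller differences. Stellate and mesenchymal markers averaged 6.33 to 6.67 at 42 h and 6.50 to 6.80 in fresh cells, with 3 of 22 that rose and 3 that fell. Lymphocyte and natural killer cell markers lay near background in both groups, at 6.20 to 6.25 at 42 h and 6.37 to 6.48 in fresh cells, and 10 of 25 fell. Neutrophil markers averaged 6.30 to 6.95 at 42 h and 6.02 to 6.08 in fresh cells. The 3 of 8 that rose were Lcn2, Mmp9 and Cxcr2. Means of Cxcr2 were at background in both groups, and its call was lost with all 18 arrays in the fit. The granulocyte genes S100a8 and S100a9, which define that cell type, had means at background in both groups. Platelet and erythroid markers averaged 6.44 to 6.60 at 42 h and 6.53 to 6.59 in fresh cells, and markers of bile duct cells 6.10 to 6.19 at 42 h and 6.28 to 6.58 in fresh cells.

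**Figure D2:**
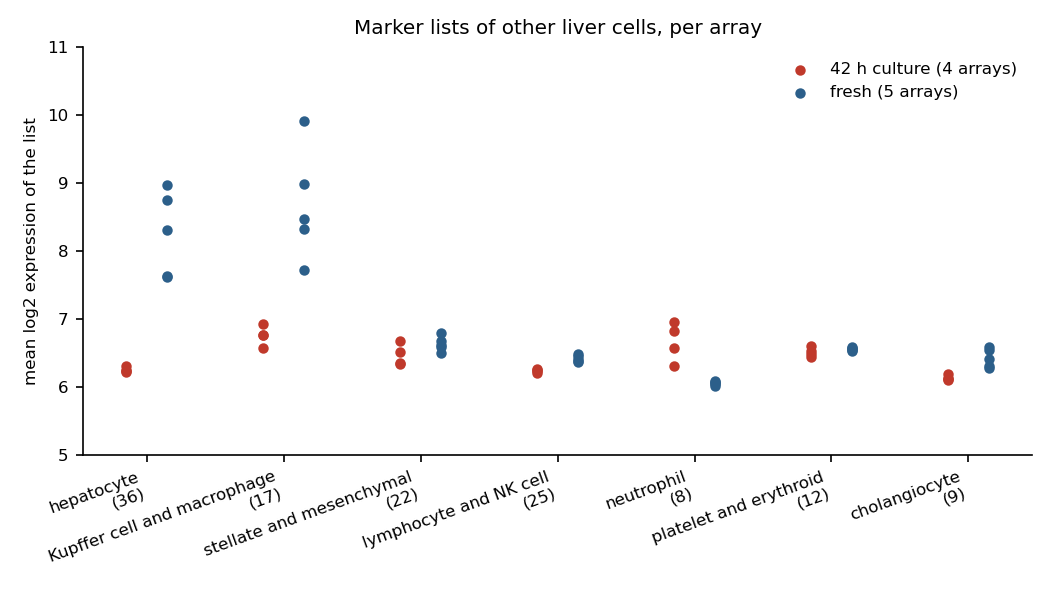
Mean log2 expression of marker lists for cells other than LSEC, 1 point per array, with the number of measured markers in brackets; 42 h culture is drawn to the left of fresh cells. Hepatocyte means were 6.21 to 6.31 at 42 h and 7.61 to 8.97 in fresh cells, and Kupffer cell means 6.57 to 6.93 at 42 h and 7.72 to 9.91 in fresh cells.

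The label was checked against endothelial markers. The 6 measured general endothelial markers kept a high mean in every array, 10.60 to 11.14 at 42 h and 11.63 to 11.77 in fresh cells. Of these 5 fell, 2 of them at least 2-fold, and 1 did not pass (median log2 difference -0.65). The 9 measured sinusoidal markers averaged 8.91 to 9.38 at 42 h and 11.15 to 11.44 in fresh cells. Here 7 fell, each at least 2-fold, and 2 did not pass (median -2.77). The cultured arrays were thus those of endothelial cells with lower markers of both kinds, and the larger median fall was in the sinusoidal ones. Replicates of a group resembled each other: the SD of the log2 difference over all genes between any pair of arrays was 0.197 to 0.333 at 42 h and 0.154 to 0.327 among fresh arrays.

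The 15 largest rises among called genes without overlap between groups held metabolic enzymes, secreted endothelial products and regulators of growth. Akr1b8, an aldo-keto reductase that reduces aldehydes, had log2 levels of 13.37, 12.99, 12.72 and 13.11 at 42 h, against 6.98, 7.11, 6.79, 6.92 and 8.44 in fresh cells. Fresh array 17 stood 1 log2 unit or more above the other fresh arrays, yet far below every 42 h array. The 42 h mean is near the upper end of the scale, and the level there was 55.7-fold higher (log2 difference 5.80 ± 0.31, SE, adjusted p = 4.65e-07). Fabp4, the fatty acid carrier of adipocytes and of capillary endothelium, had log2 levels of 12.87, 12.79, 13.21 and 13.21 at 42 h, against 7.38, 7.43, 7.59, 8.20 and 7.67 in fresh cells. Its 42 h arrays all lay near the upper end, and it was 41.3-fold higher (adjusted p = 2.58e-08). Esm1, the secreted proteoglycan endocan that marks sprouting tip cells, had log2 levels of 12.48, 12.05, 11.81 and 12.86 at 42 h, against 7.55, 7.26, 7.56, 7.80 and 8.25 in fresh cells. The groups were well apart, 24.6-fold higher in culture (adjusted p = 3.90e-07).

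Others of this set varied more among the 42 h arrays. Lcn2, a siderophore-binding lipocalin released in inflammation, had log2 levels of 12.05, 7.59, 11.04 and 8.44 at 42 h, against 5.95, 5.86, 5.85, 6.01 and 5.93 in fresh cells. The fresh arrays sat at background and the 42 h arrays spread over more than 4 log2 units, with arrays 1 and 3 high and arrays 2 and 12 low, at least 11.5-fold higher as a group mean (adjusted p = 0.00188). Cxcr4, the receptor for the chemokine CXCL12, had log2 levels of 8.33, 9.24, 10.28 and 11.83 at 42 h, against 6.74, 6.55, 6.89, 6.68 and 6.38 in fresh cells. Array 12 was highest and array 1 lowest at 42 h, and no array overlapped the fresh group (log2 difference 3.27 ± 0.56, adjusted p = 6.77e-04). Asns, which makes asparagine, had log2 levels of 10.86, 10.14, 8.69 and 8.68 at 42 h, against 6.01, 6.21, 6.31, 6.44 and 6.54 in fresh cells. Arrays 1 and 2 were higher than arrays 3 and 12 by more than 1 log2 unit, and all 4 lay above the fresh range (log2 difference 3.29 ± 0.41, adjusted p = 8.82e-05).

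Ccn2, a matricellular protein induced by stretch and TGF-beta, had log2 levels of 12.85, 12.66, 12.23 and 12.64 at 42 h, against 8.51, 8.86, 9.78, 8.70 and 7.96 in fresh cells. All 42 h arrays lay above every fresh array, and the gene was 14.2-fold higher (adjusted p = 4.58e-06). Myc, a transcription factor that drives growth, had log2 levels of 10.43, 10.36, 9.71 and 9.28 at 42 h, against 6.52, 6.33, 7.03, 6.86 and 6.36 in fresh cells. Its log2 difference was 3.32 ± 0.25 with no overlap (adjusted p = 3.10e-06). Mmd, Ugp2, Sod2, Ccl2, Pawr, Gpx8 and Apln complete the set, with log2 differences of 2.81 to 4.26. Mmd is a membrane protein named for macrophage maturation, Ugp2 makes UDP-glucose, Sod2 is the mitochondrial superoxide dismutase, and Ccl2 attracts monocytes. Pawr is a pro-apoptotic repressor, Gpx8 a peroxidase of the endoplasmic reticulum, and Apln the ligand of the apelin receptor.

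The 15 largest falls mixed genes of other liver cells, early response genes and genes of LSEC. Alb is given above, and the macrophage genes Ccl6, Clec4f, C1qa and C1qc fell by 3.57 to 4.35 on the log2 scale beside the Kupffer cell means given above. Ackr4, an atypical receptor that removes the chemokines CCL19 and CCL21, had log2 levels of 6.17, 6.22, 6.08 and 6.14 at 42 h, against 11.15, 10.94, 11.02, 11.38 and 10.90 in fresh cells. Its 42 h mean lay at background, and it was at least 28.3-fold lower (adjusted p = 1.39e-09). Ccdc80, a secreted matrix protein, had log2 levels of 8.58, 8.63, 9.14 and 8.67 at 42 h, against 12.62, 12.68, 12.82, 12.59 and 12.54 in fresh cells. The fresh arrays were within 0.5 log2 units of each other, and the gene was 14.9-fold lower at 42 h (adjusted p = 2.26e-08). Dpp4, a peptidase of the cell surface, had log2 levels of 7.66, 7.69, 8.38 and 8.57 at 42 h, against 11.63, 11.85, 11.62, 11.60 and 11.57 in fresh cells. No array overlapped, and it fell by 3.58 ± 0.19 on the log2 scale (adjusted p = 4.05e-07). Ccl24, an eosinophil attractant, and Abca8a, a lipid transporter, fell by 4.07 ± 0.12 and 3.63 ± 0.23 on the log2 scale without overlap. The remaining members, Fos, Egr1, Hspa1b, Cyp26a1 and Clec4m, are described with their lists.

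**Figure D3:**
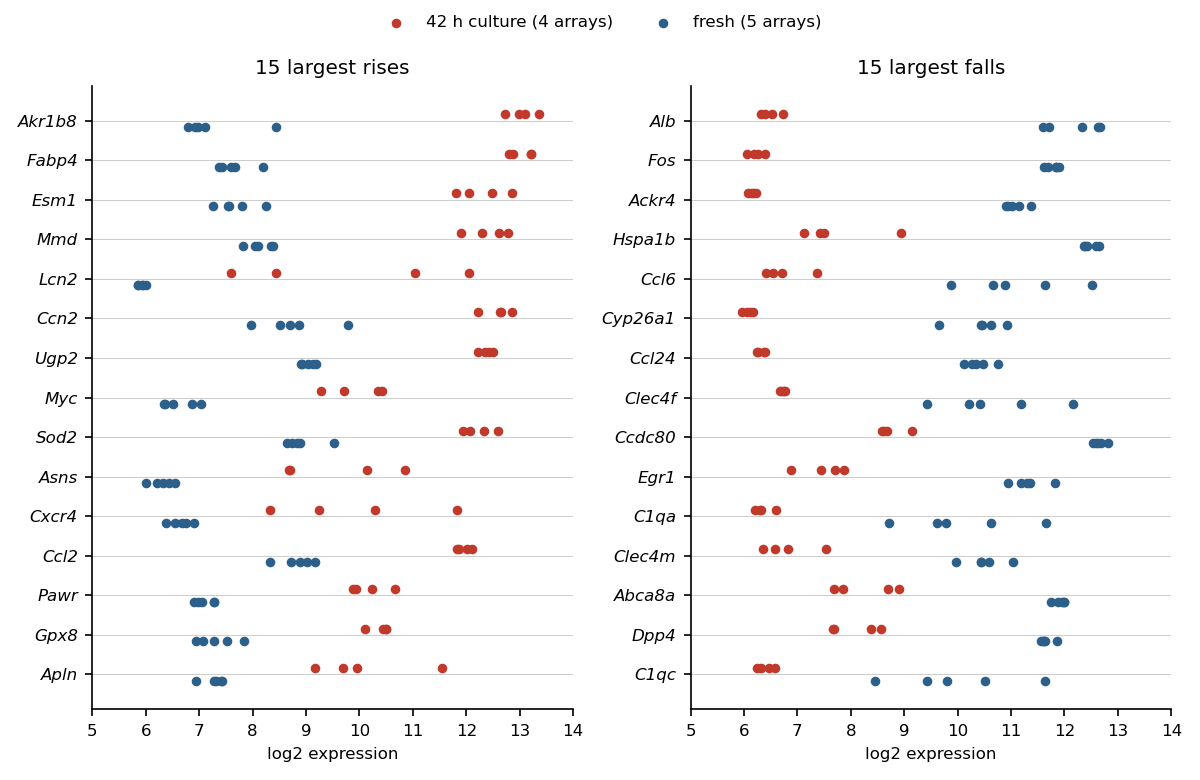
Log2 expression in single arrays of the 15 largest rises (left) and 15 largest falls (right); the 42 h points lie above the fresh points of the same gene. No gene shown has overlapping groups, Lcn2 and Cxcr4 have the widest spread at 42 h, and Ccl6, Clec4f, C1qa and C1qc the widest in fresh cells.

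Among the 16 measured genes of the sinusoidal program (transcription factors such as Gata4 and secreted factors such as Wnt2), 13 fell and 0 rose, with a median log2 difference of -1.18. Bmp2, which tells hepatocytes to make hepcidin, had log2 levels of 7.92, 7.69, 7.15 and 7.92 at 42 h, against 11.26, 11.31, 11.13, 11.21 and 11.24 in fresh cells. The fresh arrays were within 0.2 log2 units of each other and every 42 h array was far below them, 11.8-fold lower (adjusted p = 1.20e-07). Gata4, the factor needed for sinusoidal identity in the mouse, had log2 levels of 7.55, 7.51, 7.54 and 7.55 at 42 h, against 9.88, 9.95, 9.42, 9.31 and 9.96 in fresh cells. It was 4.49-fold lower (adjusted p = 1.49e-06). Its GATA cofactor Zfpm1 fell by 2.00 ± 0.12 on the log2 scale and Meis1, a homeobox factor, by 1.20 ± 0.12. The members that did not pass the test were Il6r (-0.13, adjusted p = 0.597), Zfpm2 (-0.11, adjusted p = 0.141) and Hlx (0.09, adjusted p = 0.632).

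Scavenger receptors and other clearance genes divided: of 18 measured, 5 rose, 7 fell and 6 did not pass, with a median log2 difference of -0.09. Clec4m, a C-type lectin of the sinusoid that binds high-mannose glycans, had log2 levels of 6.58, 6.36, 6.81 and 7.54 at 42 h, against 10.43, 10.44, 10.59, 9.97 and 11.04 in fresh cells. It was 12.7-fold lower at 42 h, and array 12 was the highest of the 4 (adjusted p = 2.11e-06). Dnase1l3, a secreted nuclease that removes DNA of dead cells, had log2 levels of 10.54, 10.98, 11.51 and 12.28 at 42 h, against 13.31, 13.30, 13.24, 13.16 and 13.26 in fresh cells. Its fresh mean is near the upper end of the scale, so the 3.80-fold lower level may understate the fall (adjusted p = 2.52e-04). Fcgrt, the recycling receptor for IgG and albumin, fell by 1.91 ± 0.23 on the log2 scale, and Lrp1, Colec12, Scarf1 and the adaptor Dab2 by 1.02 to 1.36. Among fresh arrays Lrp1 was highest in array 15 and lowest in array 17, as were the Kupffer cell markers, whose part was not tested.

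Fcgr2b, Lyve1 and Ctsl did not pass the test. Fcgr2b, the receptor with which LSEC take up immune complexes, had log2 levels of 13.40, 13.03, 13.15 and 13.28 at 42 h, against 13.31, 13.32, 13.24, 13.36 and 13.35 in fresh cells. The groups overlapped, and the 95% interval of the log2 difference was -0.30 to 0.10 (adjusted p = 0.376), with the caution that both means are above 13. Lyve1, the hyaluronan receptor of LSEC and lymphatic endothelium, had log2 levels of 12.70, 13.02, 12.90 and 12.98 at 42 h, against 12.99, 12.99, 12.90, 13.06 and 12.94 in fresh cells. Here too the groups overlapped, with an interval of -0.27 to 0.11 (adjusted p = 0.463, and 0.0327 after quantile normalization). Ctsl, the lysosomal cathepsin L, had an interval of -0.23 to 0.14 (adjusted p = 0.686), again with means above 13. In the other direction, Tfrc, the transferrin receptor, had log2 levels of 9.03, 9.57, 8.48 and 8.01 at 42 h, against 6.83, 6.44, 7.18, 7.15 and 6.73 in fresh cells. It was 3.75-fold higher, with every 42 h array above the fresh range (adjusted p = 2.78e-04). Scarb2, a membrane protein of lysosomes, and Clec14a, an endothelial lectin, rose by 0.87 ± 0.16 and 0.93 ± 0.16. The rises in the list numbered 3 when all 18 arrays were in the fit.

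Downstream of the receptors, 17 of 28 genes of the endocytic machinery fell and 6 rose (median -0.54). Ehd3, a membrane-shaping ATPase of recycling endosomes, had log2 levels of 8.16, 9.44, 9.47 and 9.10 at 42 h, against 12.08, 12.07, 11.63, 11.14 and 12.17 in fresh cells. It was 6.84-fold lower with no overlap (adjusted p = 3.19e-05). Its relatives Ehd1, Ehd2 and Ehd4 rose by 0.43 to 0.96 on the log2 scale. The clathrin chains Clta, Cltb and Cltc, which coat endocytic vesicles, and dynamin 2 (Dnm2), which cuts them from the membrane, fell by 0.56 to 0.80. Of 35 lysosomal genes, 24 fell and 2 rose, with a median log2 difference of -0.64. Arsb, which removes sulfate from dermatan sulfate, had log2 levels of 7.94, 7.87, 8.08 and 8.18 at 42 h, against 10.73, 10.80, 10.21, 9.95 and 10.72 in fresh cells. It was 5.51-fold lower (adjusted p = 2.60e-06). Smpd1, the acid sphingomyelinase, and the proteases Ctsd and Ctsh fell by 1.42 to 1.52. Among fresh arrays Ctsh was highest in array 15 and lowest in array 17, as were the Kupffer cell markers. Cd68 and Ctss, which also mark macrophages, fell by 1.76 to 2.00 beside the lower Kupffer cell means, whose part in the lysosomal counts was not tested. Cd63, a tetraspanin of late endosomes, and Atp6v1h, a subunit of the proton pump, rose by 0.56 to 0.91, and the count of rises was 4 without 42 h array 2.

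Retinoid genes had some of the lowest levels at 42 h. Retinoic acid is made from the vitamin A stored in stellate cells, and it switches on the enzymes that break it down. Cyp26a1, such an enzyme, had log2 levels of 6.17, 6.12, 5.96 and 6.06 at 42 h, against 10.63, 10.43, 9.66, 10.91 and 10.46 in fresh cells. All 42 h arrays were at background, at least 17.9-fold lower (adjusted p = 2.54e-07). Its relative Cyp26b1 had log2 levels of 6.44, 6.27, 6.22 and 6.31 at 42 h, against 7.96, 9.18, 9.67, 8.72 and 8.92 in fresh cells. It was 5.98-fold lower (adjusted p = 2.97e-05). Dhrs3, a retinal reductase that is also induced by retinoic acid, fell by 3.56 ± 0.10 on the log2 scale, and the receptors Rarg and Rara fell by 0.99 to 2.04. Rbp4 and Lrat fell as well, and these also stand on the hepatocyte and stellate cell lists. In all 9 of 17 retinoid genes fell and 2 rose (median -0.41), the rises being Aldh1a2 and Crabp1 at log2 differences of 0.19 to 0.25. The call of Aldh1a2 was lost with all 18 arrays in the fit.

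Genes of the general endothelial list fell more often than they rose, 20 against 4 of 32 (median -0.65). Flt4, the receptor for VEGF-C, had log2 levels of 8.24, 8.17, 8.73 and 8.93 at 42 h, against 11.03, 10.75, 10.12, 10.66 and 10.73 in fresh cells. It was 4.41-fold lower with all fresh arrays above all cultured ones (adjusted p = 1.53e-05). Flt4 was not even across endothelium, with a mean of 10.66 in fresh LSEC and 7.57 in the fresh lung endothelial arrays. Flt1, the decoy receptor for VEGF, Tmem204, a junction-associated membrane protein, and Mmrn2, a matrix protein of vessels, fell by 1.80 to 2.44 on the log2 scale. Cdh5, the VE-cadherin that joins endothelial cells, had log2 levels of 10.84, 11.14, 11.66 and 11.54 at 42 h, against 11.70, 11.76, 11.59, 11.71 and 11.63 in fresh cells. The groups overlapped and the gene did not pass (log2 difference -0.38 ± 0.15, adjusted p = 0.058), although it did with all 18 arrays in the fit (adjusted p = 0.0276), with dim genes left out (adjusted p = 0.0461) and without 42 h array 3 or 12. Erg, a transcription factor of endothelial identity, had a log2 difference of 0.05 (adjusted p = 0.838), and Sox18 one of -0.03 (adjusted p = 0.955). S1pr1, the receptor for the lipid S1P, rose by 0.99 ± 0.11.

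Genes that mark vessels with continuous walls went in both directions, with 8 of 35 that rose and 15 that fell (median -0.16). Fabp4, Apln, Nid2, Ace and Edn1 were among the rises. Nid2, a basement membrane protein, had log2 levels of 9.21, 9.34, 9.56 and 9.22 at 42 h, against 6.66, 7.09, 7.05, 7.18 and 6.93 in fresh cells. It was 5.10-fold higher (adjusted p = 2.73e-07). Vwf, the clotting factor stored in endothelial granules, fell by 0.44 ± 0.09 on the log2 scale (adjusted p = 0.0022). Cav1, the coat protein of caveolae, had log2 levels of 7.53, 9.02, 8.23 and 7.20 at 42 h, against 7.35, 7.56, 7.49, 7.26 and 7.36 in fresh cells. The cultured arrays differed among themselves, arrays 2 and 3 above the fresh range and array 12 below it, and the gene did not pass (adjusted p = 0.124, and 0.0232 without array 12). Aqp1, a water channel, had log2 levels of 6.95, 7.55, 8.43 and 9.61 at 42 h, against 10.70, 10.37, 10.11, 9.36 and 10.83 in fresh cells. It fell by 2.14 ± 0.50 on the log2 scale although array 12 reached the fresh range (adjusted p = 0.00436). Among basement membrane genes Hspg2 (perlecan) and Col4a2 fell by 1.44 to 2.49, and Col4a1 had a log2 difference of -0.18 (adjusted p = 0.132). Plvap, which forms the diaphragms of pores, had a log2 difference of -0.16 (adjusted p = 0.594).

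The cell junction list had 6 rises and 10 falls among 25 genes. Jam2, an adhesion molecule of endothelial junctions, had log2 levels of 6.97, 7.40, 7.90 and 7.99 at 42 h, against 10.71, 10.65, 10.80, 10.33 and 10.70 in fresh cells. It was 8.42-fold lower (adjusted p = 1.30e-06). Gja4, the gap junction protein connexin 37, fell by 2.50 ± 0.21 on the log2 scale while Gja1, connexin 43, rose by 1.25 ± 0.17. Of 11 caveola genes 3 rose and 2 fell. Cavin2, a caveola coat gene, fell by 2.18 ± 0.27 and Cavin1 rose by 0.75 ± 0.23, a call that was lost without 42 h array 2 or 3. Without array 3 the list held 1 rise.

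Genes that respond to flow or set vessel tone fell in 18 of 34 cases and rose in 10; with all 18 arrays in the fit 4 rose. Klf2, a transcription factor induced by flow, had log2 levels of 6.72, 6.71, 6.59 and 6.69 at 42 h, against 9.62, 9.44, 9.72, 9.56 and 10.25 in fresh cells. It was 8.22-fold lower, and all cultured arrays were close together and below all fresh ones (adjusted p = 2.45e-07). Nos3, the endothelial nitric oxide synthase and a target of that factor, had log2 levels of 8.13, 9.03, 8.89 and 8.41 at 42 h, against 10.66, 10.49, 10.24, 10.84 and 10.73 in fresh cells. It was 3.95-fold lower (adjusted p = 1.63e-05). Thbd, thrombomodulin, and Klf4 fell by 2.47 to 2.48 on the log2 scale, and Npr1, Ptgs1 and Calcrl, which serve natriuretic peptides, prostaglandins and adrenomedullin, by 2.01 to 2.49. Ptgs1 shared the order of the Kupffer cell markers at its ends, highest in fresh array 15 and lowest in array 17, and their part was not tested. The vasoconstrictor Edn1 and the angiotensin-converting enzyme Ace rose by 1.21 to 1.37. Adm, the ligand adrenomedullin, had log2 levels of 11.26, 10.16, 9.43 and 10.49 at 42 h, against 8.28, 8.36, 8.28, 7.58 and 8.15 in fresh cells. It was 4.60-fold higher (adjusted p = 2.06e-04), while its receptor parts Calcrl and Ramp2 fell.

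Of 35 tip-cell and angiogenesis genes 10 rose (28.6%) and 11 fell (31.4%), with a median log2 difference of 0.02. Over all genes 33.8% rose and 22.8% fell, and no direction of the list is read from these counts. Among the rises were Esm1, Cxcr4, Apln, Nid2 and Angpt2, with log2 differences of 1.30 to 4.62. Apln had log2 levels of 9.69, 11.55, 9.96 and 9.16 at 42 h, against 7.32, 7.42, 7.40, 7.28 and 6.95 in fresh cells. Array 2 was highest and the groups did not overlap (adjusted p = 1.69e-04). Angpt2, an antagonist of Tie2, had log2 levels of 9.87, 10.86, 8.71 and 10.13 at 42 h, against 8.63, 9.12, 8.49, 8.12 and 8.62 in fresh cells. Array 3 lay within the fresh range, and the call was lost with array weights (adjusted p = 0.0121, and 0.0671 with weights). The receptors Flt1, Flt4, Nrp1, Nrp2 and Plxnd1, which receive VEGF and semaphorin signals, fell by 0.89 to 2.20. Dll4, given below with the Notch genes, did not pass (log2 difference -0.53, adjusted p = 0.251). Vegfa had a log2 difference of 0.24 ± 0.08 (adjusted p = 0.0314), which missed the threshold with all 18 arrays in the fit and when fresh array 13, 14 or 17 or 42 h array 2 was left out.

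In the BMP and TGF-beta pathway 17 of 42 genes fell and 8 rose (median -0.02). Ligands are described first: Bmp2 is given above, Tgfb1 fell by 1.78 ± 0.14 on the log2 scale, and Inhbb, a subunit of activins, rose by 1.91 ± 0.55, with 42 h array 2 inside the fresh range. The receptors Tgfbr3 and Acvrl1, the second a receptor for BMP9 in endothelium, fell by 1.27 to 1.75. Among the targets, Id1, an inhibitor of helix-loop-helix factors, had log2 levels of 8.96, 8.19, 7.72 and 7.71 at 42 h, against 10.11, 10.16, 10.34, 10.38 and 10.57 in fresh cells. It was 4.48-fold lower (adjusted p = 3.46e-05). Id3 fell by 2.26 ± 0.12, Id2 fell to background, and the feedback inhibitors Smad6, Smad7 and Bambi fell by 1.24 to 1.59. Ccn2 and Tgif1, a corepressor of Smads, rose by 1.68 to 3.83.

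Wnt genes fell in 16 of 33 cases and rose in 3 (5 without 42 h array 2). Wnt2, the ligand that LSEC give to the hepatocytes of the central zone, had log2 levels of 6.58, 6.61, 6.57 and 6.54 at 42 h, against 9.44, 9.52, 9.42, 9.46 and 9.24 in fresh cells. It was 7.15-fold lower (adjusted p = 3.41e-09). Rspo3, which strengthens Wnt signals, fell by 0.45 ± 0.09 on the log2 scale, and the receptors Fzd1, Fzd8 and Fzd4 by 1.14 to 2.41. The inhibitor Dkk2 had log2 levels of 5.83, 5.68, 5.66 and 5.74 at 42 h, against 8.38, 8.77, 5.80, 6.25 and 8.21 in fresh cells. Fresh arrays 13, 14 and 17 were high and arrays 15 and 16 lay near the 42 h values. Its call (adjusted p = 0.0251) was lost when fresh array 13, 14 or 17 or 42 h array 2 or 3 was left out. Of 18 Notch genes 7 fell and 4 rose. The receptor Notch1, the ligand Dll1 and the target Hes1 fell by 1.01 to 1.74, and the ligand Dll4 had a log2 difference of -0.53 (adjusted p = 0.251).

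Immediate early genes, which cells switch on within minutes of a stimulus, were high in fresh cells: 21 of 33 fell by 42 h and 6 rose, with a median log2 difference of -1.11. Fos, a partner of Jun in the AP-1 factor, had log2 levels of 6.40, 6.26, 6.19 and 6.06 at 42 h, against 11.69, 11.62, 11.85, 11.83 and 11.89 in fresh cells. All fresh arrays were high and the 42 h mean lay at background, at least 45.9-fold lower (adjusted p = 2.76e-10). Egr1 had log2 levels of 7.88, 7.70, 6.88 and 7.45 at 42 h, against 11.19, 11.29, 10.94, 11.82 and 11.35 in fresh cells. It was 14.3-fold lower (adjusted p = 6.31e-07). Zfp36, which destabilises cytokine mRNA, the phosphatases Dusp1 and Dusp5, and Jun and Junb fell by 2.13 to 3.19 on the log2 scale. Myc and Gadd45a went the other way and rose by 1.17 to 3.32, and Fosl1, at background in fresh cells, was at least 2.23-fold higher. The heat shock gene Hspa1b, an inducible HSP70, had log2 levels of 8.93, 7.49, 7.42 and 7.13 at 42 h, against 12.58, 12.38, 12.43, 12.36 and 12.64 in fresh cells. Array 1 was highest at 42 h but far below every fresh array, and the gene was 26.6-fold lower (adjusted p = 1.44e-06). Its partners Dnajb1 and Hspb1 fell by 1.69 to 1.75.

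Interferon-stimulated genes, which carry out antiviral defence, fell together: 29 of 36 fell, 20 of them at least 2-fold, and 0 rose (median -1.12). The list averaged 7.50, 7.62, 7.54 and 7.48 in 42 h arrays 1, 2, 3 and 12, against 8.65, 8.95, 9.35, 8.11 and 8.50 in fresh arrays 13 to 17. The cultured arrays were alike, and the fresh arrays spread over more than 1 log2 unit with array 15 highest and array 16 lowest. Kupffer cell markers in the same fresh arrays averaged 8.99, 8.32, 9.91, 8.46 and 7.72, also highest in array 15 but lowest in array 17, and their part in the interferon values was not tested. Irf7, the factor that amplifies the response, had log2 levels of 7.95, 8.34, 7.56 and 7.49 at 42 h, against 10.43, 11.04, 11.72, 8.75 and 9.79 in fresh cells. It was 5.69-fold lower, with the fresh arrays in the same order as the list (adjusted p = 0.00197). Rsad2, the antiviral enzyme viperin, had log2 levels of 8.04, 7.73, 7.58 and 7.51 at 42 h, against 9.70, 10.32, 11.001, 9.07 and 9.68 in fresh cells. It was 4.71-fold lower (adjusted p = 2.44e-04). The ubiquitin-like Isg15 and the chemokine Cxcl9 fell by 2.26 to 2.45, and Ifit1 and Mx1 had differences of -1.79 and -1.07 that did not pass (adjusted p = 0.115 and 0.0926). Without fresh array 16 both passed, and Ifit1 also without fresh array 17.

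Genes of antigen presentation fell more often than they rose. No MHC class I pathway gene rose and 9 of 16 fell, among them the immunoproteasome parts Psmb8 and Psmb9 and the peptide transporter Tap1 with falls of 0.94 to 1.32 on the log2 scale. B2m, the shared light chain, had a difference of -0.04 (adjusted p = 0.72) with means above 13. RT1-A2, one of several closely similar class I heavy chain genes that its probes may not tell apart, had log2 levels of 10.46, 6.09, 10.49 and 9.88 at 42 h, against 11.61, 11.86, 12.73, 10.53 and 10.78 in fresh cells. Array 2 alone was near background at 42 h, and the call (adjusted p = 0.0457) was lost in the fit of all 18 arrays, after quantile normalization, without an intensity trend, and without fresh array 13, 14, 15 or 17 or 42 h array 12. In the class II pathway 7 of 14 fell and 0 rose. Cd74, the invariant chain, had log2 levels of 7.08, 6.95, 7.21 and 6.71 at 42 h, against 10.90, 10.11, 12.03, 9.64 and 8.70 in fresh cells. Fresh array 15 was highest and array 17 lowest, as for the Kupffer cell markers, whose part was not tested, and the gene was 9.78-fold lower (adjusted p = 5.47e-04).

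NF-kB and inflammatory genes had 16 rises and 13 falls among 36 (median 0.09). Sod2 had log2 levels of 12.59, 11.95, 12.08 and 12.33 at 42 h, against 8.89, 8.73, 9.53, 8.84 and 8.65 in fresh cells. It was 9.92-fold higher (adjusted p = 7.14e-07). The neutrophil chemokines Cxcl1 and Cxcl2 and the apoptosis inhibitor Birc3 rose by 1.94 to 2.75 on the log2 scale. Ccl2 had log2 levels of 11.83, 12.01, 11.87 and 12.10 at 42 h, against 9.02, 8.71, 9.16, 8.33 and 8.90 in fresh cells. The 42 h arrays were within 0.3 log2 units of each other, all above the fresh range (adjusted p = 3.14e-07). Il1a, a cytokine, Socs3, a feedback inhibitor of cytokine receptors, and Csf1, the macrophage growth factor, fell by 1.67 to 2.95. Adhesion molecules for leukocytes differed from each other: the selectin Selp, whose fresh mean lay at background, was at least 2.30-fold higher, Sele rose but had means at background in both groups, Vcam1 fell by 1.30 ± 0.15, and Icam1 fell by 0.54 ± 0.17, a call lost without 42 h array 2 or 3. With all 18 arrays in the fit the calls of Icam1 and Sele were lost. Of 37 chemokine genes 15 rose and 10 fell.

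Lists of growth and protein turnover had high shares of rises. Ribosome biogenesis, the nucleolar work of making and processing ribosomal RNA, had 35 of 36 genes that rose and 1, the RNA polymerase I factor Ubtf, that fell (median 0.94). The list averaged 9.08, 9.14, 8.67 and 8.51 in 42 h arrays 1, 2, 3 and 12, against 7.74, 7.70, 7.74, 7.83 and 7.73 in fresh arrays 13 to 17. Cultured arrays 1 and 2 were higher than arrays 3 and 12, and all 4 lay above the fresh range. Fbl, the fibrillarin that methylates ribosomal RNA, had log2 levels of 11.78, 12.04, 11.30 and 10.85 at 42 h, against 8.73, 8.64, 8.75, 8.93 and 8.72 in fresh cells. It was 6.68-fold higher (adjusted p = 3.48e-06). Ebna1bp2, a factor of large-subunit assembly, had log2 levels of 10.54, 10.83, 10.002 and 9.77 at 42 h, against 8.01, 8.004, 8.02, 8.25 and 7.98 in fresh cells. It was 4.70-fold higher (adjusted p = 7.81e-06). Nhp2, Nop58 and Gar1, proteins of the RNA-guided modification complexes, rose by 1.76 to 2.60 on the log2 scale.

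A sequence feature that the arrays do not measure was looked up in promoters, from 250 bases before to 50 bases after each start site. RefSeq promoters of build GRCr8 matched 9060 of the 11018 genes by gene identifier. The E-box CACGTG, a site that Myc proteins can bind, was in 9 of the 32 ribosome biogenesis promoters with a sequence, 28.1%, and in 8.74% of all 9060. This motif is its own reverse complement, so both strands give the same match. Fbl at chr1:92597157-92597456 on the plus strand and Ebna1bp2 at chr5:137433284-137433583 on the plus strand carry it and are shown because both genes are given above, 5′ to 3′ with the match in capitals. A match is a run of letters and says nothing of a factor bound there.
Fbl: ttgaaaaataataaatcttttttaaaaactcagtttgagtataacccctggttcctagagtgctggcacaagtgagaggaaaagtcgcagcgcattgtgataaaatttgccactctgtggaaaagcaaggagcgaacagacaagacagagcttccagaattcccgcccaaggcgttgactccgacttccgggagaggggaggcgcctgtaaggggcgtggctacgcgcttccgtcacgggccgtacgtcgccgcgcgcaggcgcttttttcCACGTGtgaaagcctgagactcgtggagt
Ebna1bp2: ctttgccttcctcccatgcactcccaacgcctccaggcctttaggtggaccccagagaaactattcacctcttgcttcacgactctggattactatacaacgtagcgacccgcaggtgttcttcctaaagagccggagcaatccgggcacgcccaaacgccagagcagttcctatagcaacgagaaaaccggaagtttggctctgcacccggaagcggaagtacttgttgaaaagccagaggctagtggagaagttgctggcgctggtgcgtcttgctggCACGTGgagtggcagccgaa

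Proteasome genes rose in 28 of 31 cases and fell in 0 (median 0.76), and Psma2, a part of its core, had log2 levels of 10.99, 11.06, 10.92 and 10.88 at 42 h, against 9.49, 9.38, 9.38, 9.24 and 9.53 in fresh cells. It was 2.94-fold higher (adjusted p = 3.32e-07). The subunits Psmb8, Psmb9 and Psmb10, which replace the standard ones under interferon, are not on that list and fell. Psmb5 and Psmb7, the standard counterparts of Psmb8 and Psmb10, rose by 0.39 to 0.86 on the log2 scale. Among 25 chaperones 14 rose and 5 fell: the ring subunits Cct2, Cct3, Cct4, Cct5, Cct7 and Cct8, which fold actin and tubulin, rose by 0.69 to 1.63, in contrast to the heat shock genes above. Oxidative phosphorylation genes, which encode the mitochondrial respiratory chain, rose in 39 of 50 cases, and 1, Cox8a, fell (median 0.44). Uqcrh, a part of complex III, had log2 levels of 10.65, 11.06, 11.10 and 11.17 at 42 h, against 9.81, 9.80, 9.86, 9.95 and 9.86 in fresh cells. It was 2.20-fold higher (adjusted p = 1.22e-05).

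DNA replication genes rose in 28 of 34 cases and fell in 2 (median 0.69). The list averaged 7.74, 8.42, 7.80 and 7.51 in 42 h arrays 1, 2, 3 and 12, against 7.32, 7.34, 7.29, 7.17 and 7.26 in fresh arrays 13 to 17. Array 2 was the highest, and no cultured array reached down to the fresh range. Mcm7, a helicase subunit, had log2 levels of 10.25, 10.45, 9.95 and 9.58 at 42 h, against 7.74, 8.04, 8.08, 7.66 and 7.70 in fresh cells. It was 4.63-fold higher (adjusted p = 3.90e-06). The falls were Cdk2 and Ccnd1, the cyclin of early G1, which had log2 levels of 8.31, 9.51, 7.91 and 7.28 at 42 h, against 9.76, 9.45, 9.50, 10.16 and 9.47 in fresh cells. Array 2 overlapped the fresh range, and the gene fell by 1.42 ± 0.37 on the log2 scale (adjusted p = 0.0085). Of 44 mitotic genes 18 rose and 2 fell (median 0.34), and the count of rises was 10, 10 and 11 without fresh array 15, 16 and 17. Their mean per array was 6.80, 7.46, 6.92 and 6.69 at 42 h, where array 2 stood above the rest, against 6.63, 6.83, 6.53, 6.52 and 6.60 in fresh cells, where array 14 was highest. Top2a had a log2 difference of 0.19 (adjusted p = 0.242) and Cdk1 one of 0.76 (adjusted p = 0.0877, 0.0413 without 42 h array 12, and 0.0424 with all 18 arrays in the fit).

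Amino acid supply and endoplasmic reticulum genes of the ATF4 list rose in 26 of 48 cases and fell in 6 (median 0.55). ATF4 is a transcription factor that raises amino acid synthesis and the charging of tRNA. The list averaged 9.37, 9.23, 8.81 and 8.78 in 42 h arrays 1, 2, 3 and 12, against 8.39, 8.35, 8.38, 8.64 and 8.44 in fresh arrays 13 to 17, with arrays 1 and 2 highest. Besides Asns, the glycine enzyme Shmt2 rose by 2.01 ± 0.27 on the log2 scale, and the serine enzyme Psat1, at background in fresh cells, was at least 5.96-fold higher (adjusted p = 1.98e-04). Slc7a1, a carrier of arginine and lysine, had log2 levels of 8.49, 8.26, 7.59 and 7.54 at 42 h, against 6.58, 6.62, 6.65, 6.76 and 6.67 in fresh cells. It was 2.50-fold higher (adjusted p = 1.65e-04). Tars1, which charges tRNA with threonine, had log2 levels of 9.79, 9.80, 9.23 and 9.10 at 42 h, against 8.02, 8.03, 8.17, 8.17 and 8.06 in fresh cells. It was 2.62-fold higher (adjusted p = 2.90e-05). The falls were the lectin chaperones Calr and Canx, Hsp90b1 and Pdia4 of the endoplasmic reticulum, Sel1l of its degradation pathway, and Slc7a5. These genes fell by 0.39 to 1.41 on the log2 scale, and Slc7a5 is an amino acid carrier, as is Slc7a1, which rose. Atf4 itself had a log2 difference of 0.28 (adjusted p = 0.174, and 0.032 without 42 h array 3), Ddit3 one of -0.12 (adjusted p = 0.717), and Hspa5 one of 0.51 (adjusted p = 0.141, and 0.00754 without fresh array 16).

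The amino acid response element, searched as TGATGNAA on both strands, was in 10 of the 41 list promoters with a sequence, 24.4%, against 2.22% of all 9060. It was in 9 of the 23 of genes that rose and in 0 of the 6 of genes that fell, too few falls to compare. The list was drawn up around ATF4 and endoplasmic reticulum stress, so its share is not independent of that choice. As for the E-box, a match says nothing of a factor bound there. Slc7a1 at chr12:11664238-11664537 on the plus strand and Tars1 at chr2:62114753-62115052 on the minus strand are shown from RefSeq GRCr8 as carriers of the element, in capitals; in Tars1 the match lies on the opposite strand.
Slc7a1: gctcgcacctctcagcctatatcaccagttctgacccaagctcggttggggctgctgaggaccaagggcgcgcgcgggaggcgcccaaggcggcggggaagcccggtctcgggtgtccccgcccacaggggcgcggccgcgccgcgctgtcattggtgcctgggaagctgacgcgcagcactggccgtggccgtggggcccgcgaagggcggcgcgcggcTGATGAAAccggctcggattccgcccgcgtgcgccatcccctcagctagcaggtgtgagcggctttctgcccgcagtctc
Tars1: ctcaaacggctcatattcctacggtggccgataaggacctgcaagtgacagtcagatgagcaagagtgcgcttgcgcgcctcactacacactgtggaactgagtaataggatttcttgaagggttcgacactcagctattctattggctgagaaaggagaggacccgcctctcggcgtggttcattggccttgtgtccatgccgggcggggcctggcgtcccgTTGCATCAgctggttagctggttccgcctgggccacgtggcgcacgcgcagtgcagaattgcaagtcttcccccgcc

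Genes of cholesterol synthesis, efflux and control had 14 rises and 5 falls among 25 (median 0.50). Idi1, which converts the building blocks of isoprenoids, had log2 levels of 9.34, 10.94, 9.47 and 9.46 at 42 h, against 7.31, 7.69, 7.72, 7.53 and 7.34 in fresh cells. Array 2 was more than 1 log2 unit above the other cultured arrays, and all lay above the fresh range, 4.87-fold higher (adjusted p = 1.07e-04). Sqle, Msmo1 and Cyp51, later enzymes of the pathway, rose by 1.56 to 1.67 on the log2 scale. The falls were on the side of efflux and control: Apoe, the liver X receptors Nr1h2 and Nr1h3, Insig2 and Scap fell by 0.23 to 1.13, where the call of Nr1h3 was lost without 42 h array 1 or fresh array 13. Nr1h3 too was highest in fresh array 15 and lowest in array 17, beside the Kupffer cell markers, whose part was not tested. The sterol regulatory element, searched as TCACNCCAC on both strands, was in 0 of the 20 list promoters with a sequence and in 1.1% of all.

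Genes of the NRF2 pathway, which defends against oxidants, had 13 rises and 7 falls among 28. Nqo1, a quinone reductase and common readout of the pathway, had log2 levels of 10.42, 8.82, 8.78 and 9.48 at 42 h, against 7.35, 7.22, 7.18, 7.64 and 7.44 in fresh cells. It was 4.03-fold higher (adjusted p = 2.56e-04). Gclm, a subunit of the enzyme that starts glutathione synthesis, and Txnrd1, a thioredoxin reductase, rose by 0.71 to 0.75 on the log2 scale, while Hmox1, which breaks down heme and is high in macrophages of the liver, fell by 1.26 ± 0.23 beside the lower Kupffer cell means, whose part was not tested. The antioxidant response element, searched as TGACNNNGC on both strands, was in 6 of 25 list promoters, 24%, and in 14.3% of all. Of 37 fatty acid genes 13 rose and 13 fell, 35.1% each, against 33.8% and 22.8% of all genes. Of 28 glycolysis and hypoxia genes 12 rose and 4 fell. Slc2a1, the glucose carrier, Pgk1, a glycolytic kinase, and Hif1a rose by 1.14 to 1.32, and Pfkl, the liver-type phosphofructokinase, fell by 1.43 ± 0.08.

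**Figure D4:**
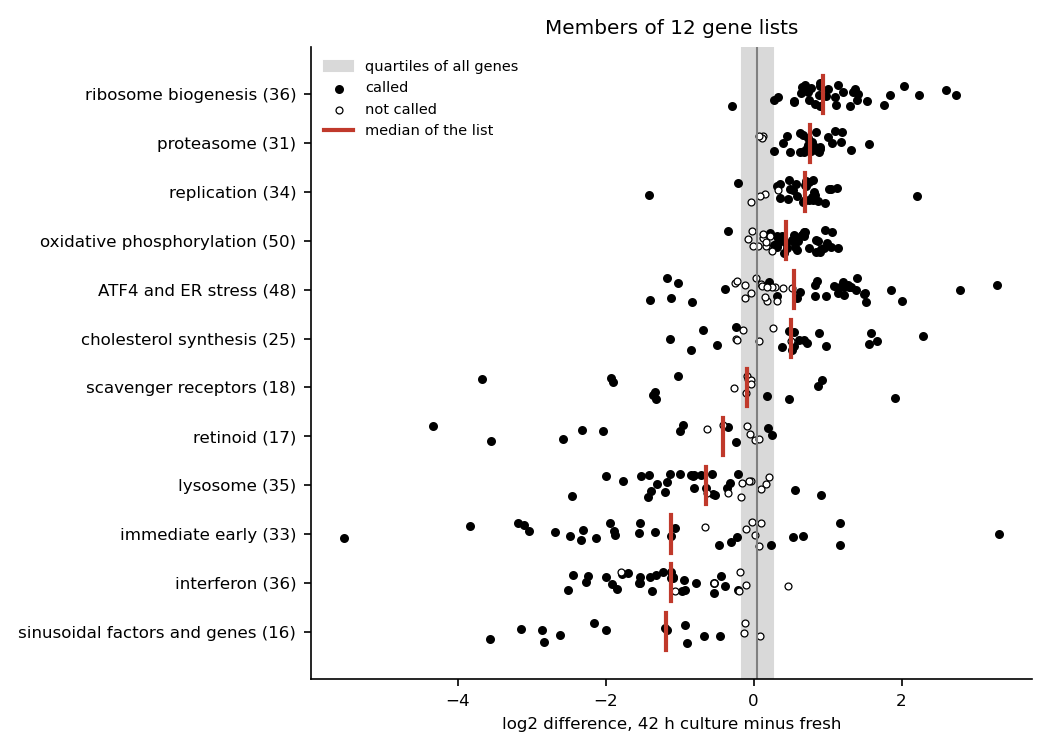
Log2 difference, 42 h culture minus fresh cells, of each measured member of 12 gene lists; filled points were called, open points were not, the red bar is the median of the list and the grey band spans the quartiles of all genes, -0.16 to 0.26. Medians were 0.94 for ribosome biogenesis, 0.76 for the proteasome, -1.12 for interferon genes and -1.18 for sinusoidal genes.

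Matrix and adhesion genes fell more often than they rose. Of 69 extracellular matrix genes 23 fell and 9 rose, and the count of rises was 4 or 5 when any of fresh arrays 14 to 17 or 42 h arrays 1 or 12 was left out. Emilin1, an elastic fibre protein, had log2 levels of 7.59, 7.99, 8.55 and 7.95 at 42 h, against 11.37, 11.37, 10.94, 11.34 and 11.44 in fresh cells. It was 9.68-fold lower (adjusted p = 5.06e-07). Col3a1, a fibrillar collagen that is also on the stellate cell list, had log2 levels of 6.40, 6.12, 6.30 and 7.36 at 42 h, against 8.01, 8.78, 8.62, 9.95 and 9.53 in fresh cells. It was 5.39-fold lower with fresh array 16 highest (adjusted p = 4.22e-04). Col1a1, Col1a2 and Fn1, which mark the mesenchymal state, had log2 differences of -0.07, -0.15 and 0.19 and did not pass (adjusted p = 0.612, 0.673 and 0.523). Of 34 integrin and focal adhesion genes 17 fell and 3 rose, with Itga9 and Itga5, integrin chains that bind matrix, at falls of 1.73 to 2.37. Among 45 proteases and their inhibitors 19 fell and 5 rose. Mmp3, the protease stromelysin, had log2 levels of 7.56, 6.08, 7.105 and 9.89 at 42 h, against 5.77, 5.77, 5.83, 5.84 and 5.82 in fresh cells. Arrays of the 42 h group spread from near background in array 2 to high in array 12 (adjusted p = 0.0223).

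Vim, the intermediate filament of mesenchymal and endothelial cells, had log2 levels of 10.48, 12.34, 12.52 and 11.51 at 42 h, against 9.14, 9.59, 10.11, 10.26 and 9.67 in fresh cells. It was 3.89-fold higher, with array 1 lowest at 42 h (adjusted p = 0.00189). S100a4 and S100a6, small calcium-binding proteins, rose by 1.29 to 2.02 on the log2 scale, and the smooth muscle gene Tagln, at background in fresh cells, was at least 1.99-fold higher (adjusted p = 0.0143). Of the transcription factors of endothelial-to-mesenchymal transition, Snai1, Zeb1 and Zeb2 fell by 0.33 to 1.24, and Twist1 had means at background in both groups (adjusted p = 0.341). In all 6 of 24 genes of that list rose and 5 fell. Among 68 actin genes 15 rose and 20 fell. Myh9, the heavy chain of non-muscle myosin, had log2 levels of 7.92, 7.59, 7.72 and 7.55 at 42 h, against 10.17, 9.95, 9.98, 9.33 and 9.94 in fresh cells. It was 4.52-fold lower (adjusted p = 2.54e-06). Actb fell by 1.34 ± 0.08 on the log2 scale, beside the larger 3′ minus 5′ difference of its control probes at 42 h, whose part was not tested.

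The 2 h arrays give levels early in culture. Their bacterial poly-A controls averaged 7.62 to 8.37 per array, near the 42 h level and above the 5.72 to 5.74 of fresh arrays. A step from 0 h to 2 h therefore cannot be told apart from the handling that added these controls. Tests of 42 h against 2 h called 8186 genes (74.3%), of which 3669 were higher at 42 h (33.3% of genes tested) and 4517 lower (41%). The share of higher genes among those calls was 44.8%, and it was 52.6% after quantile normalization and 65.9% without dim genes, so no overall direction is read from it. Akr1b8 had log2 levels of 7.25 ± 0.68 at 0 h, 12.17 ± 1.02 at 2 h and 13.05 ± 0.27 at 42 h (SD, n = 5, 4 and 4), and the difference between 42 h and 2 h did not pass the test (adjusted p = 0.0904). Sod2 had 8.93 ± 0.35, 12.30 ± 0.10 and 12.24 ± 0.29 at the same times (adjusted p = 0.755 for 42 h against 2 h). Both were already high at 2 h. Fabp4 had 7.65 ± 0.33 at 0 h, 10.81 ± 0.91 at 2 h and 13.02 ± 0.22 at 42 h, a further rise that passed the test (adjusted p = 6.76e-05).

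Fos had 11.78 ± 0.12 at 0 h, 12.01 ± 0.12 at 2 h and 6.23 ± 0.14 at 42 h (adjusted p = 1.88e-13 for 42 h against 2 h), and Hspa1b 12.48 ± 0.13, 12.28 ± 0.37 and 7.74 ± 0.81 (adjusted p = 3.78e-08). Both were high in fresh cells and after 2 h, and low at 42 h. Irf7 had 10.35 ± 1.14 at 0 h, 11.40 ± 0.26 at 2 h and 7.84 ± 0.39 at 42 h (adjusted p = 1.75e-05). The chemokine Cxcl10 had 9.09 ± 0.88, 13.22 ± 0.16 and 7.18 ± 0.45 (adjusted p = 2.18e-08), highest at 2 h and lowest at 42 h. Gata4 had 9.70 ± 0.31 at 0 h, 7.86 ± 0.20 at 2 h and 7.54 ± 0.02 at 42 h (adjusted p = 0.065), and Ehd3 11.82 ± 0.43, 8.95 ± 0.33 and 9.04 ± 0.61 (adjusted p = 0.779), so neither passed the test between 2 h and 42 h. Clec4m had 10.49 ± 0.39, 9.66 ± 0.22 and 6.82 ± 0.51 (adjusted p = 3.50e-07). Jam2 had 10.64 ± 0.18, 9.30 ± 0.28 and 7.56 ± 0.47 (adjusted p = 6.43e-06), and both genes were lower at 42 h than at 2 h. Fbl had 8.75 ± 0.11 at 0 h, 9.71 ± 0.68 at 2 h and 11.49 ± 0.53 at 42 h (adjusted p = 1.31e-04), and Mcm7 7.84 ± 0.20, 8.29 ± 0.23 and 10.06 ± 0.38 (adjusted p = 1.28e-06), both highest at 42 h.

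**Figure D5:**
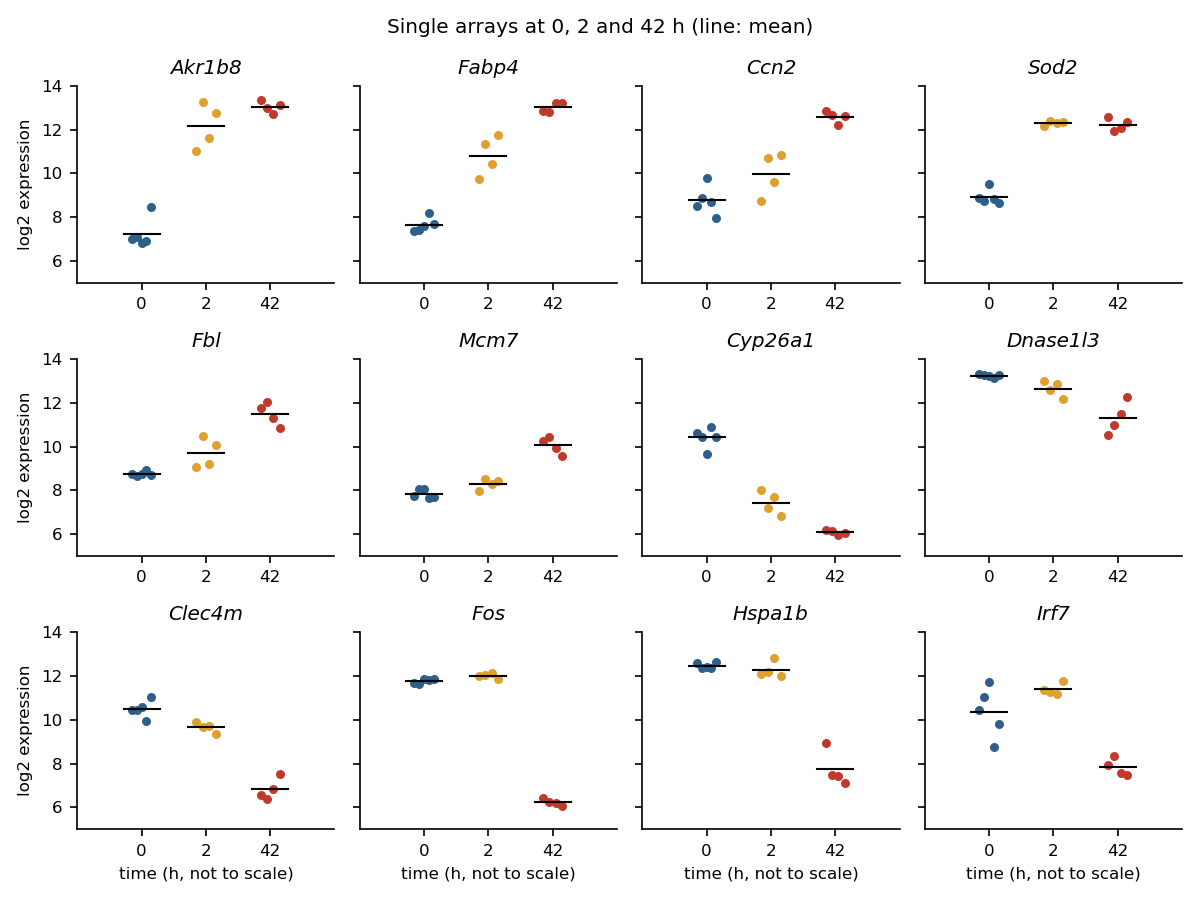
Log2 expression of 12 genes in single arrays at 0, 2 and 42 h (5, 4 and 4 arrays), with a line at the mean; the time axis is not to scale. Akr1b8 and Sod2 were high by 2 h, Fos and Hspa1b stayed high at 2 h and were low at 42 h, and Fbl and Mcm7 were highest at 42 h.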

How the data were processed

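Biotin-labelled cRNA was hybridised to Affymetrix rat arrays, per the labels' protocols. The authors deposited 1 log2 value per probe set and array, with probe sets named by Entrez gene, and how these were background-corrected, normalized and summarised is not given in the sources used here. Those values were used unchanged for the 11018 probe sets with 1 current gene symbol. LSEC_42h and LSEC_0h were compared with limma 3.58.1 in R 4.3.3 (lmFit and eBayes with an intensity trend, two-sided, Benjamini-Hochberg over all genes), and LSEC_42h with LSEC_2h in 1 model of the 13 LSEC arrays. The code was tested on simulated data. Single values over arrays were tested by exact permutation in scipy 1.17.1. A spike-in transcript absent from the fresh arrays set the background mark of 6.26. Genes named are the 15 largest rises and falls among called genes without overlap whose higher mean lay above the median, up to 4 called members of each list per direction, and other list members with their adjusted p. Genes, lists and groups compared were chosen with earlier results of these data known. Promoters came from RefSeq (GRCr8), 250 bases before to 50 after each start, searched on both strands. Alternatives changed the normalization, centring, dim gene filter, arrays in the fit, variance trend, array weights, genes tested, smallest change tested and single arrays left out.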

Additional observations from a re-analysis of the deposited data

Results flagged for a closer look

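Single arrays far from the others of their group were looked for in 584 pairs of a group and a value. Of these 31 passed Dixon's criterion, and chance gives about 1 in 20 groups. The total is thus near that of chance, and values listed here may be chance ones. Fresh array 16 held 12 of the 31, and no cause was tested. Its 3′ minus 5′ difference of the Actb control probes was 1.28, against 0.91 to 0.97 in the other fresh arrays. Its log2 level was above the rest for Hsp90b1 at 12.54 (others 11.39 to 11.58), Ddit3 at 9.09 (8.66 to 8.70) and S1pr1 at 10.99 (10.55 to 10.65). It was also above for Ebna1bp2 at 8.25, Nop58 at 8.60 and Cltb at 8.66. It was below the rest for Myh9 at 9.33 (others 9.94 to 10.17), Adm at 7.58 (8.15 to 8.36) and Calcrl at 9.25 (9.67 to 9.80), and for Id3 at 12.49 and Nr1h2 at 8.72.

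Fresh array 17 was high for Akr1b8 at 8.44 (others 6.79 to 7.11) and Selp at 6.36, and low for Gclm at 7.30. Fresh array 15 was high for Sod2 at 9.53 (others 8.65 to 8.89) and Psmb10 at 9.39, and low for Emilin1 at 10.94. Fresh array 14 was high for Dpp4 at 11.85 and for the mean of 3 ribosomal protein genes at 9.97. Among cultured arrays, array 2 was low for RT1-A2 at 6.09 (others 9.88 to 10.49), for Hmox1 at 8.57 (9.39 to 9.55) and for the mean of the p53 and senescence list at 7.45, and high for Idi1 at 10.94 (9.34 to 9.47) and Mx1 at 7.01 (6.25 to 6.30). Array 3 was high for Gja4 at 7.46 (others 6.59 to 6.65) and low for Gpx8 at 10.11. Array 1 was low for Ehd4 at 8.98, Gclm at 7.998 and Scarf1 at 7.999, and array 12 was high for Fzd1 at 7.44. Outside the gene measurements, the bacterial poly-A control probe sets averaged 7.80 at 42 h, above their level in fresh cells given with the controls.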

How the results depend on the processing

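No paired analysis was possible because the labels do not tie arrays to animals, and no array number occurs in both groups. Under the 1.5-fold test 1148 genes were called for 42 h against fresh cells, 570 that rose and 578 that fell, and the share of rises among calls was 49.7% against 59.7% in the standard test. With dim genes left out 5892 genes were tested and 2433 rose. For 42 h against 2 h the 1.5-fold test called 1840 genes, 1214 higher and 626 lower, and with dim genes left out 4815 were called and 1642 were lower. The test asks for a larger change and the filter tests fewer genes. With 1 array left out at a time, 42 h against fresh cells gave 5675 to 5972 calls, 3346 to 3622 rises and 2316 to 2460 falls, with 395 to 527 rises and 567 to 608 falls of at least 2-fold. The same for 42 h against 2 h gave 7750 to 8199 calls, 3522 to 3681 higher and 4228 to 4573 lower, with 885 to 1020 higher and 587 to 648 lower by at least 2-fold. The 3′ minus 5′ difference of Actb stayed between 0.80 and 0.90. Of the 214 called genes named in the text, 63 lost the call in at least 1 alternative and 12 did so apart from the 1.5-fold test, 8 of the uncalled genes gained it, and 0 of 240 reversed; the cause was not tested. With all 18 arrays in the fit rises numbered 3 for cell junctions, 5 for BMP and TGF-beta and 1 for Wnt genes. Signals near background or above 13 limit how far a fold can be measured, and the groups of 4 and 5 arrays limit the precision of each difference.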

Other observations

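In 3 further lists the share of falls lay above that of all genes, 22.8%. Of 23 coagulation genes 11 fell and 6 rose (3 rose with all 18 arrays in the fit), and of 17 genes of sphingosine 1-phosphate and lipid mediators 11 fell and 2 rose, or 1 when fresh array 15, 16 or 17 or 42 h array 1 or 12 was left out. Among 30 feedback regulators of growth factor signals 13 fell and 9 rose. Other lists had shares nearer to those of all genes, 33.8% that rose and 22.8% that fell, and no result about them is read from the counts. In the p53 and senescence list 7 of 28 rose and 7 fell. Among 16 tubulin genes 6 rose and 4 fell. Targets of YAP and SRF, which respond to cell stretch and spreading, rose in 6 of 23 cases and fell in 4. Leukocyte adhesion genes rose in 5 of 20 cases and fell in 6.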
